A study of Mus musculus with 18 samples.

Results

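The genes described here belong to the endothelial VEGF and TIE receptor systems and were measured in mouse embryonic stem cells (ESCs). They were selected by a list of gene names. They are the ligand genes Vegfa and Vegfc, the receptor genes Kdr, Flt1, Nrp1, Tek, Tie1 and Eng, and the adhesion genes Pecam1 and Cdh5. These 10 genes are part of 53672 genes listed in every library, and all 10 had enough counts to enter the tests. The parent cells were E14TG2a ESCs in which both alleles of Hdac1 and of Hdac2 are flanked by lox sites, grown in serum with leukaemia inhibitory factor, and 4-hydroxytamoxifen (OHT) induces the deletion of both genes. Every library therefore shared the floxed alleles and an introduced HDAC1 transgene, placed stably with a piggyBac vector, which encoded HDAC1-WT, HDAC1-E63R or HDAC1-Y48E. Both mutants change a residue on the surface where partner proteins bind HDAC1, and the comparison asks how genes behave when such an HDAC1 is the only HDAC1/2 left.

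Each of the 3 lines was sequenced untreated and after OHT, with 3 libraries in each of the 6 groups and 18 libraries in all. The labels give 1 µM OHT for 5 days, whereas the written methods describe a shorter OHT pulse followed by further culture. Untreated cells still carried endogenous HDAC1 and HDAC2 beside the transgene. Each construct was represented by a separate transfected line, so the encoded HDAC1 and the line cannot be told apart in comparisons between lines. The study calls the libraries biological replicates, but no label ties them to separate cultures, so the p-values measure only the spread between these libraries.

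In blood vessels, VEGF ligands signal through the tyrosine kinase receptors encoded by Kdr (VEGFR2) and Flt1 (VEGFR1, which also acts as a decoy), with neuropilin 1 as a co-receptor. Tek (TIE2) binds the angiopoietins and is modulated by the related TIE1, while endoglin (Eng) is a co-receptor for ligands of the BMP and TGF-β families. Kdr also marks early mesoderm from which endothelium and blood arise, and Pecam1 is made by naive ESCs as well as by endothelium. In bulk RNA, more cells expressing a gene and more RNA of that gene per cell cannot be told apart.

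Libraries held 9019615 to 11454638 counts on genes, so that 3 counts, the upper limit that a count of 0 allows, corresponded to between 0.248 and 0.343 counts per 1000000 counts on genes (CPM). All CPM values were scaled with TMM factors. This floor covers counting error only. Replicate 3 of the untreated HDAC1-E63R cells stood apart, with a chi-square per degree of freedom of 60.4 and 67.1 against the other libraries of its group. The other pairs of replicates gave 3.38 to 7.42, so no pair agreed within sampling noise. The OHT changes and called differences of the HDAC1-E63R line are therefore also given without that library. Counts over the whole Hdac1 and Hdac2 genes did not test the deletion, because reads of the transgene or of exons outside the lox sites may count towards them. After OHT the log2 change of Hdac1 was between -0.24 and 0.22 in the 3 lines and that of Hdac2 between -0.66 and -0.07, with no DEG among these 6 values.

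The start regions of the 4 members with the largest called changes in HDAC1-Y48E cells are shown because Kdr, Flt1 and Tek rose where Vegfa fell. Each sequence is the 250 bases before the RefSeq start on the strand of the gene (GRCm38.p6), and capitals mark GGAA, the core that ETS factors bind, or TTCC, the same core on the other strand. The windows are chr5:75978456-75978705 (minus strand) for Kdr, chr5:147726012-147726261 (minus strand) for Flt1, chr4:94739039-94739288 (plus strand) for Tek and chr17:46032378-46032627 (minus strand) for Vegfa.
Kdr: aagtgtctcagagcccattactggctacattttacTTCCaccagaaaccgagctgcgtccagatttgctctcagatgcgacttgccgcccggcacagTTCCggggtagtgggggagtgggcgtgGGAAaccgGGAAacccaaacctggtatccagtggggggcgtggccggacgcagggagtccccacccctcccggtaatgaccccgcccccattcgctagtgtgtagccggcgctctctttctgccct
Flt1: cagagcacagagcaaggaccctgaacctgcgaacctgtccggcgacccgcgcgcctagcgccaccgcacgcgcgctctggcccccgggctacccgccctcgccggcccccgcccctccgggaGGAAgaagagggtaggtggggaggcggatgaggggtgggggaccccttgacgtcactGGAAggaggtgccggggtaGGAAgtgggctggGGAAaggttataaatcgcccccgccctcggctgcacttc
Tek: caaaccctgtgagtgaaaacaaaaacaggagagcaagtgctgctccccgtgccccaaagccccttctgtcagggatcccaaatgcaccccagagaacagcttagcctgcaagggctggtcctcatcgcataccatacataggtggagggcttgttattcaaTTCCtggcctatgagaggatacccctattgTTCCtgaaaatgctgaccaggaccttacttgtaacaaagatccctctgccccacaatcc
Vegfa: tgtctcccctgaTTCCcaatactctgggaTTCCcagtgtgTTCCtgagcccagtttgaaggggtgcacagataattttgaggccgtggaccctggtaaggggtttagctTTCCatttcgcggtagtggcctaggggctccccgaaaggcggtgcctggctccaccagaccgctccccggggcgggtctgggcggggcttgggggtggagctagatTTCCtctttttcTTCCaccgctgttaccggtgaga

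The core occurred 4 times in the Kdr window, 4 times in that of Flt1, 2 times in that of Tek and 6 times in that of Vegfa. Since 93.4% of 32536 RefSeq windows of this length hold GGAA or TTCC, its presence did not set these genes apart. The letters ACGTG or GCGTG, the core bound by hypoxia-inducible factors, were sought on both strands as well and were present in 38.8% of all windows. They occurred 2 times before Kdr, 1 time before Flt1, 0 times before Tek and 0 times before Vegfa, while a further Vegfa start within the gene (chr17:46025164-46025413) held 2. CG dinucleotides numbered 23 in the Flt1 window, 16 in that of Kdr, 11 in that of Vegfa and 2 in that of Tek, against a median of 6 over all windows. The genes that rose therefore included both a CG-rich and a CG-poor start. Of the other members, Vegfc, Nrp1, Tie1 and Eng had a window with 30, 11, 6 and 4 CG dinucleotides. RefSeq windows for Pecam1 and Cdh5 were not used here.

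In HDAC1-Y48E cells Vegfa fell after OHT and 3 receptor genes, Kdr, Flt1 and Tek, rose in the same libraries, while Kdr and Tek also rose in HDAC1-E63R cells. Pecam1 also fell in HDAC1-Y48E cells, no change of Eng with OHT passed the test in any line, and no member was a DEG in HDAC1-WT cells. A DEG had an adjusted p under 0.01 (edgeR quasi-likelihood test, Benjamini-Hochberg over 18791 genes) and a change of more than 2-fold, the limits used by the study.

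In HDAC1-WT cells 0 of 10 members were higher and 0 were lower, where 0.0373% and 0.016% of all tested genes passed in the respective direction. DESeq2 also called 0 members, and 1 member, Tie1, had an unadjusted p under 0.05 in edgeR. In HDAC1-E63R cells 2 of 10 were higher, Kdr and Tek, against 4.74% of all genes, and 0 were lower against 1.18%. HDAC1-Y48E cells had 3 of 10 members higher, against 10.8% of all genes, and 2 of 10 lower, against 5.84%. By the adjusted p alone the members numbered 0, 3 and 5 in the 3 lines, where 0.0585%, 14.3% and 30.9% of all genes passed. The median log2 change over the 10 members was 0.24, 0.01 and 0.47 in HDAC1-WT, HDAC1-E63R and HDAC1-Y48E cells, and over all tested genes it was 0, 0.03 and 0.05.

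**Figure D1:**
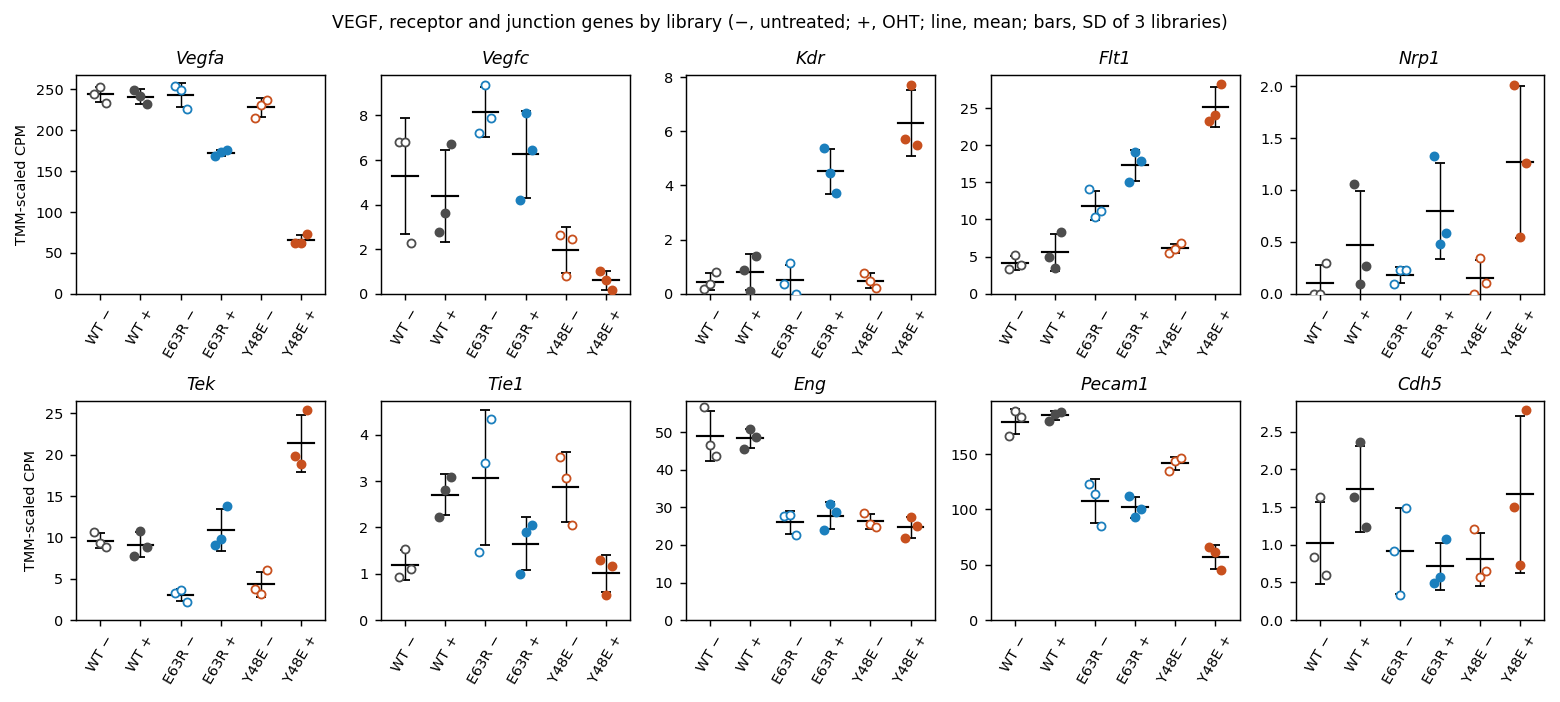
TMM-scaled CPM (vertical axes, each from 0) of the 10 genes in every library, with open circles for untreated and filled circles for OHT-treated libraries of the HDAC1-WT (grey), HDAC1-E63R (blue) and HDAC1-Y48E (orange) lines, and lines and bars for the mean and SD of 3 libraries. Kdr, Flt1 and Tek are highest and Vegfa and Pecam1 lowest in the OHT-treated HDAC1-Y48E libraries.

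Vegfa encodes the main VEGF ligand (chr17:46016993-46032369, minus strand, GENCODE M21, GRCm38). Its levels in the 3 untreated HDAC1-Y48E libraries were 216, 231 and 237 CPM, and after OHT they were 62.5, 61.8 and 72.6 CPM. Untreated HDAC1-E63R libraries held 255, 249 and 226 CPM, and after OHT 168, 173 and 175 CPM. The groups with and without OHT did not overlap in either mutant line, and the OHT-treated HDAC1-Y48E libraries were the lowest of all 18. HDAC1-WT libraries stayed at 244, 253 and 234 CPM untreated and 250, 242 and 232 CPM after OHT, so that the 2 groups overlapped.

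In HDAC1-Y48E cells Vegfa was 3.47-fold lower (log2 change -1.80 ± 0.09 SE, edgeR adjusted p = 3.63e-12). The HDAC1-E63R change of -0.50 ± 0.09 passed the adjusted p limit (edgeR adjusted p = 3.84e-04) but not the 2-fold limit, and without the library that stood apart it was -0.55. The change in HDAC1-WT cells was -0.02 ± 0.09 (edgeR adjusted p = 0.986). The OHT effect in HDAC1-Y48E cells differed from that in HDAC1-WT cells by -1.78 ± 0.13 on the log2 scale (edgeR adjusted p = 2.41e-09) and from that in HDAC1-E63R cells by -1.30 ± 0.13 (edgeR adjusted p = 2.29e-06). The difference between the HDAC1-E63R and HDAC1-WT effects was -0.48 ± 0.13, with an edgeR adjusted p of 0.0276. Before OHT the mean levels of Vegfa were 244 ± 9.66 CPM (SD, n = 3) in HDAC1-WT, 243 ± 14.9 in HDAC1-E63R and 228 ± 11.0 in HDAC1-Y48E cells.

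Vegfc, the ligand gene best known for lymphatic vessels (chr8:54077606-54187096, plus strand), was low. Its untreated HDAC1-WT libraries held 6.79, 6.80 and 2.30 CPM, and its OHT-treated ones 2.79, 3.63 and 6.71 CPM. In HDAC1-E63R cells it was at 7.21, 9.37 and 7.89 CPM untreated and at 4.22, 8.10 and 6.46 CPM after OHT. HDAC1-Y48E libraries held 2.64, 0.797 and 2.48 CPM untreated and 1.00, 0.635 and 0.180 CPM after OHT. The HDAC1-Y48E line thus had the lowest group means with and without OHT, but its 2 groups overlapped with each other, and untreated it overlapped with HDAC1-WT cells.

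The log2 change of Vegfc with OHT was -1.71 ± 0.60 in HDAC1-Y48E cells (edgeR adjusted p = 0.0256), so it did not pass. Leaving out replicate 2 of the untreated HDAC1-Y48E cells brought it past the limit, at -2.08 with an edgeR adjusted p of 0.00971. Between OHT-treated HDAC1-Y48E and OHT-treated HDAC1-WT cells Vegfc was 7.22-fold lower (log2 difference -2.85 ± 0.57, edgeR adjusted p = 2.99e-04), where the HDAC1-Y48E libraries had only 10, 7 and 2 counts. Without OHT the log2 difference of the same lines was -1.42 ± 0.50 (edgeR adjusted p = 0.0449).

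Kdr, the gene of the principal VEGF signalling receptor (chr5:75932827-75978458, minus strand), was close to the detection floor in all cells but the OHT-treated mutants. Counts were 2, 4 and 8 in the untreated and 9, 1 and 16 in the OHT-treated HDAC1-WT libraries. Those of the HDAC1-E63R line were 4, 10 and 0 untreated and 65, 47 and 38 after OHT. Those of the HDAC1-Y48E line were 7, 4 and 2 untreated and 57, 85 and 61 after OHT. Each OHT-treated mutant library thus had more Kdr counts than any of the other 12 libraries.

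On the CPM scale Kdr went from 0.480 ± 0.278 (SD, n = 3) to 6.31 ± 1.22 in HDAC1-Y48E cells, a 12.9-fold rise (log2 change 3.68 ± 0.76 SE, edgeR adjusted p = 4.64e-04). In HDAC1-E63R cells it went from 0.500 ± 0.576 to 4.53 ± 0.833 CPM, an 8.94-fold rise (log2 change 3.16 ± 0.75, edgeR adjusted p = 0.0037). The HDAC1-E63R call was lost in edgeR when any of 3 libraries was left out, untreated replicate 1 (adjusted p = 0.0171), OHT replicate 1 (0.0167) or OHT replicate 2 (0.0113), and it held without the library that stood apart (2.61, adjusted p = 0.0034). It was also lost in a fit of the HDAC1-E63R libraries alone (edgeR adjusted p = 0.0347). In HDAC1-WT cells the change was 0.82 ± 0.81 (edgeR adjusted p = 0.833). The OHT effect was not shown to differ from that in HDAC1-WT cells, with differences of 2.34 ± 1.13 for HDAC1-E63R (edgeR adjusted p = 0.245) and 2.87 ± 1.14 for HDAC1-Y48E (0.0751). Compared directly, OHT-treated HDAC1-Y48E cells held 7.86-fold more Kdr than OHT-treated HDAC1-WT cells (edgeR adjusted p = 0.00153) and OHT-treated HDAC1-E63R cells 5.65-fold more (0.00913).

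Flt1 encodes VEGFR1 (chr5:147561604-147726011, minus strand). Its levels were 5.50, 6.03 and 6.78 CPM in untreated HDAC1-Y48E libraries and 23.2, 24.0 and 28.2 CPM after OHT. HDAC1-E63R cells started higher, at 14.05, 10.39 and 11.09 CPM, and held 15.0, 19.1 and 17.8 CPM after OHT. HDAC1-WT libraries were at 3.35, 5.17 and 3.90 CPM untreated and at 4.91, 3.54 and 8.30 CPM after OHT. The groups with and without OHT were separate in both mutant lines and overlapped in HDAC1-WT cells.

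Flt1 rose 4.11-fold in HDAC1-Y48E cells (log2 change 2.04 ± 0.25, edgeR adjusted p = 1.06e-06). The change of 0.54 ± 0.24 in HDAC1-E63R cells did not pass (edgeR adjusted p = 0.104), nor did that of 0.43 ± 0.27 in HDAC1-WT cells (0.658). The HDAC1-Y48E effect exceeded that in HDAC1-WT cells by 1.61 ± 0.37 on the log2 scale (edgeR adjusted p = 0.00289), a call lost without replicate 2 of the untreated HDAC1-WT cells (1.40, adjusted p = 0.0148). It exceeded that in HDAC1-E63R cells by 1.50 ± 0.35, just outside the limit (edgeR adjusted p = 0.0121), and came inside it without the library that stood apart (1.54, adjusted p = 0.00107). Untreated HDAC1-E63R cells held 2.86-fold more Flt1 than untreated HDAC1-WT cells (log2 difference 1.52 ± 0.26, edgeR adjusted p = 1.41e-04). Without the library that stood apart this difference was 1.57, and in a fit of these groups alone it missed the limit (edgeR adjusted p = 0.0106).

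Nrp1, the co-receptor gene (chr8:128358604-128503363, plus strand), was barely detected. No untreated library had more than 3 counts. After OHT the counts were 11, 1 and 3 in HDAC1-WT, 16, 5 and 6 in HDAC1-E63R and 20, 6 and 14 in HDAC1-Y48E cells. The count ratio of OHT-treated to untreated libraries, scaled for depth, was 8.46 in HDAC1-Y48E cells (95% interval 3.06 to 32.6 from counting error), 4.68 in HDAC1-E63R cells (1.78 to 15.6) and 4.86 in HDAC1-WT cells (1.37 to 26.2). None of the lines passed the test, with edgeR adjusted p-values of 0.0389, 0.185 and 0.615. The intervals overlapped widely, and the ratio was above 1 in HDAC1-WT cells too.

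Tek, the TIE2 gene (chr4:94739289-94874976, plus strand), showed a different baseline in each mutant line. Untreated HDAC1-WT libraries held 10.6, 9.33 and 8.90 CPM, and 7.80, 10.8 and 8.83 CPM after OHT. In HDAC1-E63R cells Tek was at 3.33, 3.61 and 2.17 CPM untreated and at 9.11, 9.81 and 13.8 CPM after OHT. HDAC1-Y48E libraries held 3.74, 3.19 and 6.03 CPM untreated and 19.9, 18.9 and 25.4 CPM after OHT. Untreated mutant cells were thus below every HDAC1-WT library, OHT-treated HDAC1-E63R cells overlapped with HDAC1-WT cells, and OHT-treated HDAC1-Y48E cells were above all others.

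Tek rose 4.93-fold in HDAC1-Y48E cells (log2 change 2.30 ± 0.26, edgeR adjusted p = 3.82e-07) and 3.56-fold in HDAC1-E63R cells (1.83 ± 0.27, adjusted p = 4.41e-05). In HDAC1-WT cells the change was -0.07 ± 0.25 (edgeR adjusted p = 0.97). The effect exceeded that in HDAC1-WT cells by 2.37 ± 0.36 for HDAC1-Y48E (edgeR adjusted p = 5.11e-05) and by 1.90 ± 0.37 for HDAC1-E63R (0.00303). The latter call was lost without HDAC1-WT untreated replicate 1, HDAC1-WT OHT replicate 1 or HDAC1-E63R OHT replicate 3, with edgeR adjusted p-values of 0.0106, 0.011 and 0.0128. The effects in the 2 mutant lines differed by 0.47 ± 0.38 (edgeR adjusted p = 0.569). Without the library that stood apart the HDAC1-E63R rise was 1.65 (edgeR adjusted p = 2.11e-05).

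Before OHT, Tek was 3.15-fold lower in HDAC1-E63R than in HDAC1-WT cells (log2 difference -1.65 ± 0.28, edgeR adjusted p = 9.69e-05, which became 0.0105 in a fit of these groups alone) and 2.22-fold lower in HDAC1-Y48E cells (-1.15 ± 0.27, 0.00314). The HDAC1-Y48E difference was lost when HDAC1-WT replicate 1 or HDAC1-Y48E replicate 1 or 2 was left out, with edgeR adjusted p-values of 0.0163, 0.0213 and 0.0254. After OHT, Tek in HDAC1-E63R cells differed from that in HDAC1-WT cells by 0.25 ± 0.25 (edgeR adjusted p = 0.489). OHT-treated HDAC1-Y48E cells held 2.34-fold more than OHT-treated HDAC1-WT cells (log2 difference 1.22 ± 0.24, edgeR adjusted p = 3.15e-04).

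Tie1, the gene of the related orphan receptor (chr4:118471191-118490061, minus strand), had few counts. HDAC1-WT libraries had 10, 17 and 11 counts untreated and 23, 31 and 35 after OHT. The HDAC1-E63R libraries had 16, 30 and 38 untreated and 12, 20 and 21 after OHT. HDAC1-Y48E libraries had 32, 27 and 19 untreated and 13, 6 and 13 after OHT. The OHT-treated libraries were above the untreated ones in HDAC1-WT cells and below them in HDAC1-Y48E cells, and the groups overlapped in HDAC1-E63R cells.

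No Tie1 change with OHT passed, with log2 changes of 1.18 ± 0.51 in HDAC1-WT (edgeR adjusted p = 0.44), -0.89 ± 0.50 in HDAC1-E63R (0.208) and -1.51 ± 0.52 in HDAC1-Y48E cells (0.0233). The difference between the HDAC1-Y48E and HDAC1-WT effects, -2.69 ± 0.73, lay just outside the limit (edgeR adjusted p = 0.0106). It came inside with the Wald test of DESeq2 (adjusted p = 0.00323) and in an edgeR fit of these 2 lines alone (0.00985). The median of the ratio of Tek to Tie1 per exon length went from 1.11 (range 1.08 to 3.08) to 22.6 (15.9 to 36.2) with OHT in HDAC1-Y48E cells and from 1.11 (0.522 to 2.35) to 7.01 (5.37 to 9.57) in HDAC1-E63R cells. In HDAC1-WT cells it went from 8.44 (6.32 to 11.9) to 3.68 (2.98 to 4.01). The ratio thus moved up in both mutant lines and down in HDAC1-WT cells, with no overlap between the OHT-treated and untreated libraries of any line.

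Eng encodes endoglin (chr2:32646595-32682669, plus strand) and shares 61 exon bases with Fpgs on the opposite strand, so reads there may belong to either gene. It was at 56.6, 46.7 and 43.6 CPM in untreated and 45.6, 50.7 and 48.7 CPM in OHT-treated HDAC1-WT libraries. HDAC1-E63R libraries held 27.6, 28.0 and 22.5 CPM untreated and 23.9, 30.8 and 28.7 CPM after OHT. HDAC1-Y48E libraries held 28.6, 25.6 and 24.8 CPM untreated and 21.8, 27.3 and 24.9 CPM after OHT. All 12 libraries of the mutant lines were below all 6 of the HDAC1-WT line, whether or not they had OHT.

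The OHT changes of Eng were -0.02 ± 0.14, 0.09 ± 0.14 and -0.09 ± 0.15 in HDAC1-WT, HDAC1-E63R and HDAC1-Y48E cells, with edgeR adjusted p-values of 0.994, 0.698 and 0.632. The differences between untreated lines passed the adjusted p limit but not the 2-fold limit, at -0.91 ± 0.14 for HDAC1-E63R (edgeR adjusted p = 5.14e-05, and -0.81 without the library that stood apart) and -0.89 ± 0.14 for HDAC1-Y48E (8.35e-05). These comparisons share the same untreated HDAC1-WT libraries.

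Pecam1 encodes the adhesion molecule CD31 (chr11:106654217-106750628, minus strand). Its levels were 135, 144 and 146 CPM in untreated HDAC1-Y48E libraries and 65.7, 61.1 and 45.3 CPM after OHT. In HDAC1-E63R libraries it was at 123, 114 and 85.4 CPM untreated and at 112, 93.2 and 100.3 CPM after OHT. HDAC1-WT libraries held 167, 189 and 183 CPM untreated and 180.2, 186 and 188 CPM after OHT. Only the HDAC1-Y48E groups were separate from each other.

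Pecam1 was 2.47-fold lower in HDAC1-Y48E cells (log2 change -1.30 ± 0.14, edgeR adjusted p = 9.61e-08), while the changes in HDAC1-E63R and HDAC1-WT cells were -0.08 ± 0.13 and 0.04 ± 0.13 (0.712 and 0.963). The HDAC1-Y48E effect differed from that in HDAC1-WT cells by -1.35 ± 0.19 (edgeR adjusted p = 1.75e-05) and from that in HDAC1-E63R cells by -1.22 ± 0.19 (3.1e-04). Untreated HDAC1-E63R cells held less Pecam1 than untreated HDAC1-WT cells by a log2 difference of -0.74 ± 0.13 (edgeR adjusted p = 2.27e-04, and -0.59 without the library that stood apart), under 2-fold. The same difference for HDAC1-Y48E was -0.34 ± 0.13 (edgeR adjusted p = 0.0707).

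Cdh5, the gene of VE-cadherin (chr8:104101625-104144511, plus strand), the junction protein that defines endothelium, had few counts. They were 9, 18 and 6 untreated and 17, 26 and 14 after OHT in HDAC1-WT libraries. The HDAC1-E63R libraries had 10, 3 and 13 untreated and 6, 6 and 11 after OHT. HDAC1-Y48E libraries had 11, 5 and 6 untreated and 15, 8 and 31 after OHT. Groups overlapped in every line, and the log2 changes of 0.76 ± 0.69, -0.36 ± 0.73 and 1.04 ± 0.71 did not pass (edgeR adjusted p-values of 0.808, 0.764 and 0.247). The interval of the count ratio in HDAC1-Y48E cells ran from 1.24 to 3.58, which covers counting error and leaves out the spread between libraries.

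**Figure D2:**
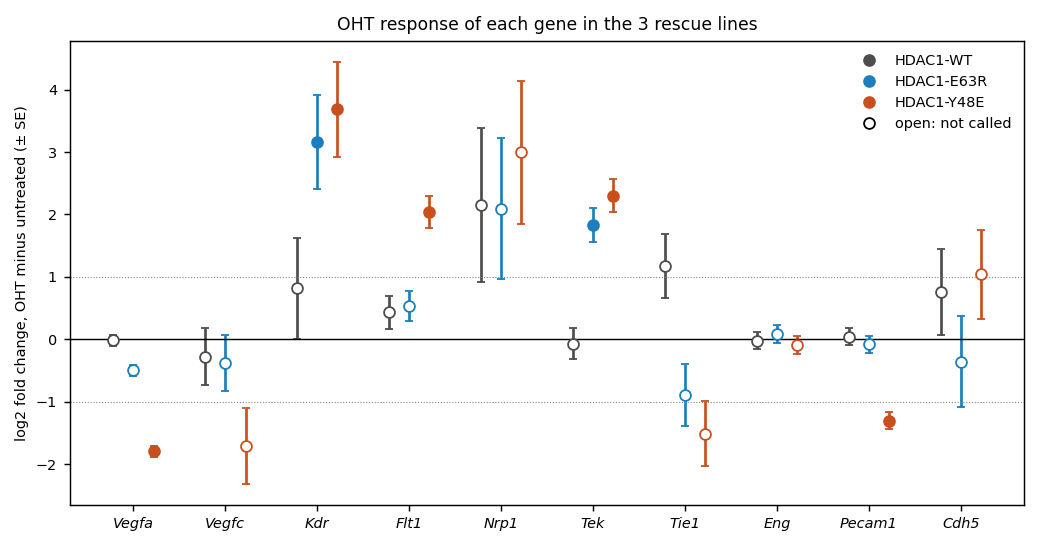
Log2 fold change of OHT-treated against untreated libraries (vertical axis, ± SE from edgeR) of each gene in the HDAC1-WT, HDAC1-E63R and HDAC1-Y48E lines, with filled points for DEGs and dotted lines at 2-fold. The filled points are Vegfa, Kdr, Flt1, Tek and Pecam1 in HDAC1-Y48E cells and Kdr and Tek in HDAC1-E63R cells, and no HDAC1-WT point is filled.

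The responses of the lines were compared member by member. Between HDAC1-E63R and HDAC1-WT cells the OHT effect differed for 1 of 10 members, Tek, against 1.68% of all tested genes. Between HDAC1-Y48E and HDAC1-WT cells it differed for 4 of 10, Vegfa, Flt1, Tek and Pecam1, against 8.62%. Between both mutants it differed for 2 of 10, Vegfa and Pecam1, against 1.31%. Flt1 lay just outside the limit there, and joined them with DESeq2, with no filter on low counts, with only the libraries compared and without untreated HDAC1-E63R replicate 2 or 3 (edgeR adjusted p = 0.00969 and 0.00107), which made 3 of 10. For Kdr (0.52 ± 1.09, edgeR adjusted p = 0.863) and Tek no difference between the mutants was found, with wide errors. These comparisons share libraries with each other.

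Without the HDAC1-E63R library that stood apart, the OHT changes of the members not yet given in that form were -0.41 for Vegfc, 0.49 for Flt1, 2.28 for Nrp1, -0.55 for Tie1, -0.0059 for Eng, -0.22 for Pecam1 and 0.14 for Cdh5, on the log2 scale, and none of them passed. The change of Tie1 was thus smaller, and those of Eng and Cdh5 had the opposite sign. The difference of the HDAC1-E63R from the HDAC1-WT effect was then 1.72 for Tek and -0.53 for Vegfa, and that of the HDAC1-Y48E from the HDAC1-E63R effect was -1.25 for Vegfa and -1.09 for Pecam1. Among untreated cells Tek differed between HDAC1-E63R and HDAC1-WT by -1.46 (edgeR adjusted p = 1.08e-04). The calls among these differences held, and that of Vegfa between HDAC1-E63R and HDAC1-WT was under 2-fold with and without the library.

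The lines also differed at a given treatment. Among untreated cells 2 of 10 members, Flt1 and Tek, differed between HDAC1-E63R and HDAC1-WT, against 7.65% of all genes, and 1 of 10, Tek, between HDAC1-Y48E and HDAC1-WT, against 5.57%. Among OHT-treated cells the members that differed from HDAC1-WT were Kdr and Flt1 in HDAC1-E63R, 2 of 10 against 9.36% of all genes. In HDAC1-Y48E they were Vegfa, Vegfc, Kdr, Flt1, Tek and Pecam1, 6 of 10 against 18.2%. Against OHT-treated HDAC1-WT cells, then, HDAC1-E63R cells were higher in Flt1 in place of Tek, a comparison that was added after the data had been seen.

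Per kilobase of exon, the scale on which levels of different genes can be compared, Vegfa led in all 6 groups, at 56.9 CPM per kb in untreated HDAC1-WT cells. Pecam1 at 28.8 and Eng at 12.1 CPM per kb followed in those cells, and Kdr at 0.0498 and Nrp1 at 0.0102 CPM per kb were the lowest. After OHT in HDAC1-Y48E cells Vegfa was at 15.3, Pecam1 at 9.21, Eng at 6.09 and Tek at 4.53 CPM per kb, followed by Flt1 at 1.86 and Kdr at 0.698. The distance between the ligand Vegfa and its receptors was thus narrower in these cells, while Kdr per kb remained below Flt1. The median ratio of Flt1 to Kdr per length in HDAC1-Y48E cells was 8.86 untreated (range 4.78 to 21.1, with 13 Kdr counts in all) and 2.71 after OHT (2.09 to 3.44).

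**Figure D3:**
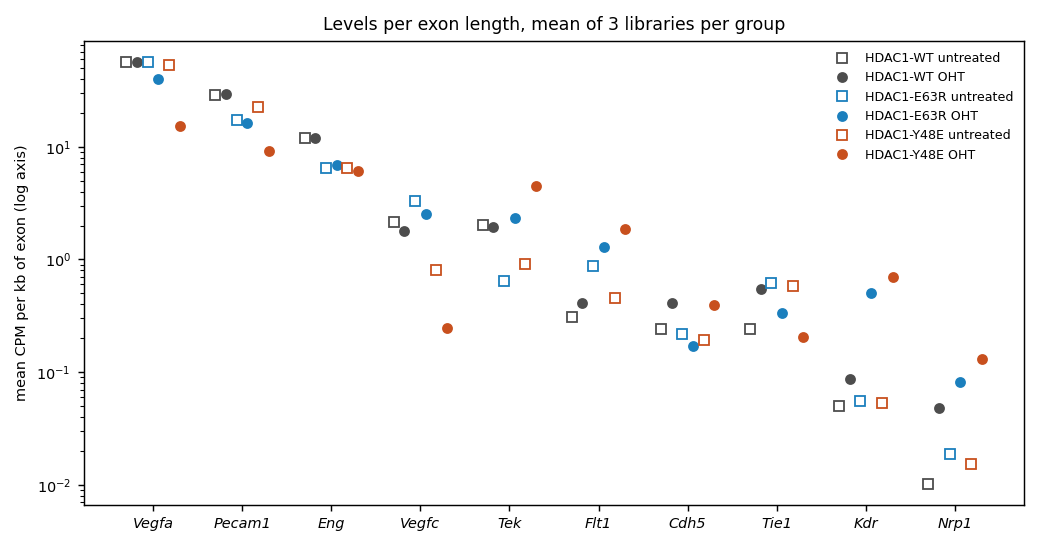
Mean CPM per kb of exon (log axis) of the 10 genes in each of the 6 groups, with squares for untreated and circles for OHT-treated cells, ordered by the level in untreated HDAC1-WT cells. Vegfa is at the top in every group, between 15.3 and 56.9 CPM per kb, and Kdr ranges from 0.0498 to 0.698.

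In the order of group means, neighbouring groups of Vegfa overlapped from untreated HDAC1-WT down to untreated HDAC1-Y48E cells and were separate below that. For Kdr the OHT-treated HDAC1-Y48E libraries, at 5.49 to 7.71 CPM, lay above the OHT-treated HDAC1-E63R libraries, at 3.72 to 5.38 CPM, which lay above the rest, and the remaining 4 groups overlapped. The order of Tek began with OHT-treated HDAC1-Y48E cells, separate from all others, followed by OHT-treated HDAC1-E63R and both HDAC1-WT groups, which overlapped. The order of Flt1 had both OHT-treated mutants on top, then untreated HDAC1-E63R cells, each separate from the next.

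Over the 18 libraries the levels of the called members had close companions among 16683 genes with a mean of at least 1 CPM, given as a description, since the points share groups. Vegfa was most like Wdr76 (Pearson r = 0.986), Tdh (0.976), the threonine dehydrogenase of mouse ESCs, and Lrrc2 (0.975). Pecam1 was most like Lima1 (0.980), Mybl2 (0.971) and Rfx2 (0.969). Kdr was most like Limch1 (0.957), Phldb2 (0.949) and Dok7 (0.947), Flt1 like Dusp5 (0.959), Tmem179 (0.949) and Bean1 (0.948), and Tek like Capn6 (0.968), Nab1 (0.951) and Brdt (0.946). No member was among the 3 closest genes of another.

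Other genes of the same systems were followed in 7 lists, of which 88 of 104 genes were tested. In HDAC1-Y48E cells 11 of the 88 rose and 13 fell, in HDAC1-E63R cells 3 rose and 4 fell, and in HDAC1-WT cells 0 rose and 0 fell. The shares were 12.5% and 14.8% in HDAC1-Y48E cells, where 10.8% of all genes rose and 5.84% fell, and 3.41% and 4.55% in HDAC1-E63R cells, where 4.74% rose and 1.18% fell. The median log2 change over the 88 was 0.13, 0.06 and 0.00 in these lines, close to that of all genes.

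Of 13 tested receptors and co-receptors, 3 rose in HDAC1-Y48E and 1 in HDAC1-E63R cells, with median changes of 0.61 and 0.56. Plxnd1, a semaphorin receptor of vessels, rose from 31.6 ± 5.52 to 102 ± 4.81 CPM in HDAC1-Y48E cells (log2 change 1.69 ± 0.18, edgeR adjusted p = 1.80e-07) and from 22.1 ± 6.10 to 51.5 ± 8.03 CPM in HDAC1-E63R cells (1.21 ± 0.19, 6.04e-05). Flt4, the receptor of VEGF-C, rose from 12.4 ± 3.12 to 35.5 ± 3.16 CPM in HDAC1-Y48E cells (1.51 ± 0.22, edgeR adjusted p = 1.07e-05). Its means were also higher after OHT in HDAC1-WT (5.27 to 11.0 CPM, log2 change 1.06) and HDAC1-E63R cells (10.6 to 18.8 CPM, 0.84). The HDAC1-WT change missed the adjusted p limit (edgeR adjusted p = 0.0663), and that of HDAC1-E63R passed it (0.00898) but was under 2-fold. Ptprb, a phosphatase acting on TIE2, had at most 1 count in the untreated HDAC1-Y48E libraries and 3.20 ± 2.04 CPM after OHT (edgeR adjusted p = 6.45e-04). In HDAC1-WT cells it was at 0 counts untreated and at 8, 8 and 2 counts after OHT, which did not pass (edgeR adjusted p = 0.189). Of 6 tested ligands, Apela, the gene of a ligand of the apelin receptor, fell in both mutant lines, by 2.39 on the log2 scale in HDAC1-Y48E (edgeR adjusted p = 1.58e-04) and by 1.50 in HDAC1-E63R cells (0.0041). Its means with OHT went from 6.52 to 1.21 CPM in HDAC1-Y48E and from 19.4 to 6.85 CPM in HDAC1-E63R cells. In HDAC1-WT cells Apela went from 12.2 to 7.17 CPM, which did not pass (log2 change -0.77, edgeR adjusted p = 0.481). Pgf, a ligand of VEGFR1, rose in HDAC1-Y48E cells from 2.37 ± 1.22 to 6.82 ± 0.921 CPM (1.52 ± 0.43, edgeR adjusted p = 0.00667). Its changes in HDAC1-WT and HDAC1-E63R cells, 0.91 and 0.86, did not pass (edgeR adjusted p = 0.517 and 0.131). The median change of the ligands was -0.12 in HDAC1-Y48E and -0.14 in HDAC1-E63R cells.

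Among 16 tested endothelial transcription factors 2 rose and 1 fell in HDAC1-Y48E cells, and 0 rose and 1 fell in HDAC1-E63R cells, with medians of 0.72 and 0.11. Ets1 rose from 3.43 ± 0.451 to 14.2 ± 1.52 CPM (log2 change 2.04 ± 0.38, edgeR adjusted p = 1.76e-04), and Etv2, which initiates the endothelial and blood fate, went from at most 2 counts per untreated library to 1.76 ± 0.738 CPM (adjusted p = 0.00194). OHT-treated HDAC1-E63R cells held 1.72 ± 0.957 CPM of Etv2 and started from 1.09 ± 0.645 CPM, and untreated HDAC1-WT cells held 0.776 ± 0.605 CPM, so untreated HDAC1-Y48E cells had the lowest level of the untreated lines. Klf2, which serves flow responses in endothelium and the naive state in ESCs, fell by 2.47 in HDAC1-Y48E cells, from 219.8 ± 13.0 to 39.7 ± 4.04 CPM (edgeR adjusted p = 1.81e-10). In HDAC1-E63R cells it fell by 1.11 (edgeR adjusted p = 2.82e-05), and without the library that stood apart the change was -0.77, under 2-fold.

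The 14 tested junction and surface genes gave 2 that rose and 2 that fell in HDAC1-Y48E cells and 0 in either direction in HDAC1-E63R cells, with medians of 0.75 and 0.55. Selp (P-selectin) had 0 counts in all untreated HDAC1-Y48E libraries and 1.30 ± 0.178 CPM after OHT (edgeR adjusted p = 0.00839). HDAC1-WT libraries also had 0 counts untreated, and 2, 9 and 0 after OHT (edgeR adjusted p = 0.417). Cd34 rose from 3.31 ± 0.129 to 10.1 ± 1.79 CPM (log2 change 1.60 ± 0.41, edgeR adjusted p = 0.00332). Nos3, the endothelial nitric oxide synthase, fell by 2.02 (edgeR adjusted p = 8.34e-06), and the fourth gene, Vwf, named after its value was seen, fell by 1.05. The called genes of this list thus went both ways, where 10.8% of all tested genes rose and 5.84% fell in HDAC1-Y48E cells.

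The 10 Notch genes of vessels had 0 that rose and 3 that fell in HDAC1-Y48E cells, and 0 and 1 in HDAC1-E63R cells, with medians of -0.43 and -0.16. Notch4 fell by 2.47 (edgeR adjusted p = 5.54e-06), the ligand gene Dll1 by 2.00 (9.81e-08) and the target Hes1 by 1.12 (5.97e-05) in HDAC1-Y48E cells. In HDAC1-E63R cells Dll1 also fell, by 1.83 on the log2 scale (edgeR adjusted p = 2.07e-06), from 26.9 ± 3.51 to 7.51 ± 0.883 CPM. Its means in HDAC1-Y48E cells were 41.2 CPM untreated and 10.3 CPM after OHT. HDAC1-WT cells held 7.14 CPM of Dll1 untreated and 4.19 CPM after OHT. Both mutant lines thus started above the HDAC1-WT line and did not end below it. Of 9 tested angiogenesis inhibitors and semaphorins, 3 rose in HDAC1-Y48E and 2 in HDAC1-E63R cells, with medians of 0.97 and 0.61. Thbs1, the thrombospondin gene, rose in both (2.36 ± 0.30 and 1.43 ± 0.29 on the log2 scale, edgeR adjusted p = 1.54e-06 and 0.00105), as did Timp3 (1.02 ± 0.26 and 1.46 ± 0.27, 0.00301 and 4.34e-04), and Vash1 rose in HDAC1-Y48E cells (1.08 ± 0.28, 0.00308). Timp3 started lower in the mutant lines, at 16.6 CPM in HDAC1-Y48E and 9.12 CPM in HDAC1-E63R against 22.9 CPM in HDAC1-WT cells. After OHT its means were 33.6, 25.2 and 19.6 CPM in these lines.

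Hypoxia genes were included because Vegfa is a classical target of hypoxia-inducible factors. Of 20 tested genes 0 rose and 6 fell in HDAC1-Y48E cells, where 5.84% of all genes fell, and 1 fell in HDAC1-E63R cells, with medians of -0.72 and -0.29. Ndrg1 fell from 147.8 ± 4.19 to 49.9 ± 3.31 CPM (log2 change -1.57 ± 0.10, edgeR adjusted p = 8.92e-11). Bnip3 fell from 400.5 ± 10.4 to 136 ± 6.12 CPM in HDAC1-Y48E cells (-1.56 ± 0.12, edgeR adjusted p = 1.87e-09), and Egln3 fell by 1.13 (2.04e-06). In HDAC1-E63R cells Bnip3 fell by 1.09 (edgeR adjusted p = 1.48e-06), which was -0.87 and under 2-fold without the library that stood apart. Its means there were 559 CPM untreated and 263 CPM after OHT, and those of Ndrg1 148 and 89.6 CPM. HDAC1-WT cells held 242 and 243 CPM of Bnip3 and 89.3 and 84.8 CPM of Ndrg1. Both genes thus started higher in the mutant lines. Egln3 did not, with 71.2 CPM in untreated HDAC1-Y48E, 110.2 in HDAC1-E63R and 109.6 in HDAC1-WT cells. In HDAC1-WT cells the median of the list was -0.04.

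Some of these calls rested on single libraries. In HDAC1-Y48E cells the call of Selp was lost without any of the 6 libraries, with edgeR adjusted p-values of 0.0176 to 0.0316 on their removal. That of Cd34 was lost without any but OHT replicate 3 (0.0124 to 0.0151), that of Pgf without untreated replicate 3 or any OHT replicate (0.0111 to 0.0441) and that of Timp3 without untreated replicate 1 or 3 or OHT replicate 1 or 3 (0.0112 to 0.0253). Vash1 was lost without untreated replicate 1 or 3 or OHT replicate 1 (0.0137 to 0.0161) and Etv2 without untreated replicate 1 or 3 (0.0136 and 0.0137). Hes1 dropped under 2-fold without OHT replicate 1, at -0.98. In HDAC1-E63R cells Apela was lost without any OHT replicate (0.0115 to 0.0236). In an edgeR fit of the HDAC1-E63R libraries alone, Apela, Plxnd1, Klf2, Timp3 and Thbs1 missed the limit in that line, with adjusted p-values of 0.0149 to 0.0386. Without the HDAC1-E63R library that stood apart the calls of Apela (-1.19), Plxnd1 (1.00), Dll1 (-1.74), Timp3 (1.11) and Thbs1 (1.29) held in that line, and that of Plxnd1 was at the 2-fold limit.

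**Figure D4:**
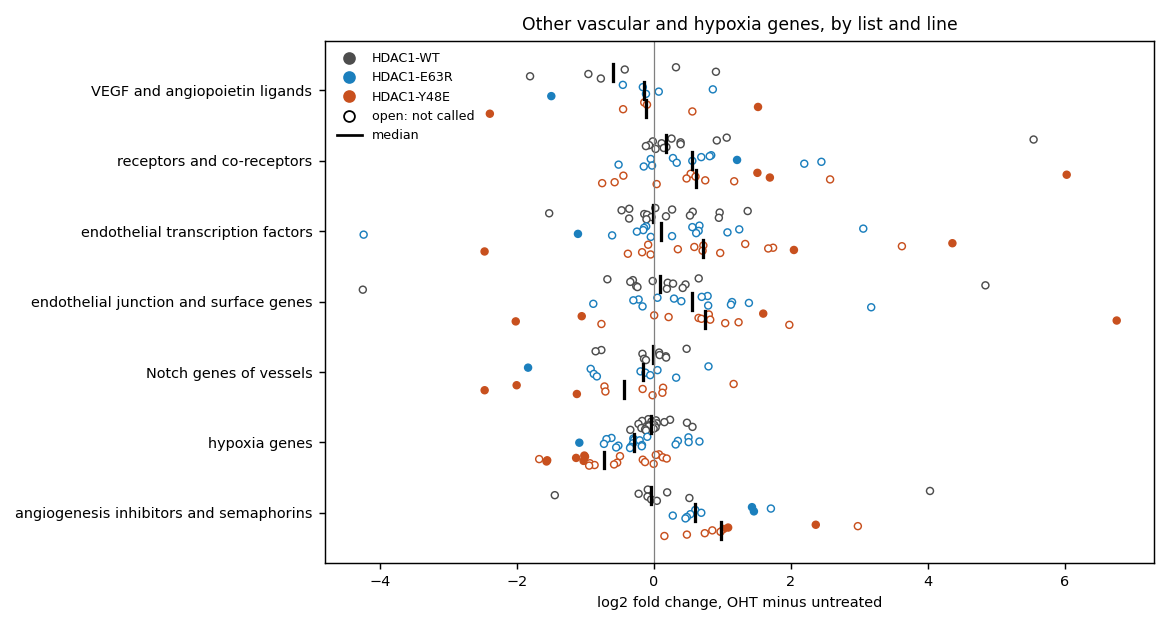
Log2 fold change of OHT-treated against untreated libraries (horizontal axis) of each tested gene of the 7 lists, by line, with filled points for DEGs and a black bar at the median of each list and line. The median of the hypoxia genes is -0.72 in HDAC1-Y48E cells, and no HDAC1-WT point is filled, although single low-count genes lie far from 0.

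The labelled cell type was checked against 10 ESC markers, all of which were above the floor in every group. Their summed level was 7370 to 7862 CPM in HDAC1-WT libraries with and without OHT. It was 5887 to 5995 CPM in untreated and 2415 to 2550 CPM in OHT-treated HDAC1-Y48E libraries, moving with Vegfa and Pecam1. The part of these markers in the results was not tested. Dppa5a (2000 and 927 CPM) and Pou5f1 (1066 and 372 CPM) were the largest parts of the sum there. All 10 means were lower after OHT in that line, that of Klf4 only slightly (148.5 and 139.1 CPM). In HDAC1-E63R cells the sum was 5019 and 5408 CPM in 2 untreated libraries and 7991 CPM in the library that stood apart. After OHT it was 4009 to 4288 CPM in that line. Klf4 (82.7 and 120.8 CPM) and Zfp42 (330 and 392 CPM) had higher means after OHT in HDAC1-E63R cells, and the other markers lower ones. There the OHT change of Pecam1 (-0.08) passed neither limit, and that of Vegfa (-0.50) passed the adjusted p limit alone.

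A set of 10 endothelial markers beyond the members summed to 43.3 to 50.0 CPM in HDAC1-WT libraries. Their sum was 55.4 to 64.9 CPM in untreated and 67.5 to 79.5 CPM in OHT-treated HDAC1-Y48E libraries, and 64.6 to 96.7 CPM and 78.0 to 81.5 CPM in those of the HDAC1-E63R line. The HDAC1-E63R groups overlapped through the library that stood apart alone, at 96.7 CPM, and the other untreated libraries were at 69.9 and 64.6 CPM. In HDAC1-Y48E cells Egfl7 (18.02 CPM untreated and 28.35 CPM after OHT) and Cd34 (3.311 and 10.05 CPM) had the largest gains in mean. Etv2, Sox18, Esam, Robo4 and Plvap gained less, and Cldn5 hardly differed (2.628 and 2.632 CPM). Vwf had a lower mean after OHT there (22.07 and 10.64 CPM). Untreated HDAC1-WT cells already held 15.28 CPM of Egfl7 and 17.85 CPM of Vwf. The defining marker Emcn was at or under the floor in all 18 libraries. All 10 of these markers are also in the lists above. The sum of 10 early mesoderm markers moved with Kdr and Tek, from 13.6 to 14.7 CPM up to 41.8 to 43.4 CPM in HDAC1-Y48E libraries and from 11.2 to 17.3 CPM up to 44.7 to 52.9 CPM in HDAC1-E63R libraries. Hand1 and Eomes, which are also counted among the trophoblast markers, made up most of these sums. Hand1 was at 1.70 CPM untreated and 16.4 CPM after OHT in HDAC1-Y48E cells and at 2.86 and 29.0 CPM in HDAC1-E63R cells, and Eomes at 7.21 and 15.0 CPM and at 6.43 and 12.5 CPM. The other markers of the set were low and went both ways. In HDAC1-Y48E cells T (0.186 and 1.26 CPM), Mixl1 (0 and 0.706 CPM), Lhx1 (0.0718 and 0.907 CPM), Foxf1 (1.26 and 3.81 CPM), Pdgfra (1.45 and 3.30 CPM) and Mesp1 had higher means after OHT. Tbx6 had a lower one there (2.18 and 0.612 CPM). In HDAC1-E63R cells Pdgfra (0.757 and 3.61 CPM), Foxf1 (1.23 and 1.72 CPM), Lhx1, Mixl1 and Msgn1 had higher means. T (0.558 and 0.417 CPM), Mesp1 (0.436 and 0.350 CPM) and Tbx6 (1.62 and 1.39 CPM) had lower means in that line. Untreated HDAC1-WT cells, where Kdr was near the floor, held 28.6 to 43.1 CPM of the same markers. Their part in the rise of Kdr, Flt1 and Tek was not tested.

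Blood markers summed to 9.48 to 16.9 CPM in untreated and 28.1 to 32.3 CPM in OHT-treated HDAC1-Y48E libraries. In HDAC1-E63R libraries they summed to 12.9 to 17.2 CPM and 23.0 to 26.6 CPM. Itga2b (3.74 and 12.3 CPM) and Spi1 (2.53 and 6.05 CPM) had the largest gains in mean in HDAC1-Y48E cells, while Klf1 had a lower mean (1.79 and 1.37 CPM). The embryonic globin genes Hbb-bh1 and Hba-x were at the floor in every group. Hbb-y, also an embryonic globin gene, had a mean of 0 CPM in both untreated mutant lines. After OHT it was at 1.15 CPM in HDAC1-Y48E and 0.379 CPM in HDAC1-E63R cells. Trophoblast markers summed to 92.9 to 108 CPM untreated and 169.7 to 178 CPM after OHT in HDAC1-Y48E cells. The sums were 92.0 to 101 CPM and 179.5 to 189 CPM in HDAC1-E63R cells, against 233 to 261 CPM in HDAC1-WT libraries. Tpbpa was at the floor in every group. In HDAC1-Y48E cells Esx1 (13.6 and 70.7 CPM) made up most of the difference. Tfap2c (59.5 and 54.15 CPM), Ascl2 (17.4 and 7.80 CPM) and Cdx2 had lower means after OHT there. In HDAC1-E63R cells Tfap2c (55.6 and 102 CPM) and Hand1 made up most of it, while Ascl2 (17.8 and 7.165 CPM) and Cdx2 had lower means. The sum of the mural markers was higher after OHT in HDAC1-Y48E cells, at 272 to 305 CPM against 194 to 212 CPM untreated, and the groups overlapped in the other lines, in HDAC1-E63R cells through the library that stood apart. In HDAC1-Y48E cells Tagln (16.6 and 68.5 CPM) and Notch3 (101.7 and 134.5 CPM) made up most of the difference, while Pdgfrb was at 16.7 and 11.2 CPM, Des at 56.0 and 53.7 CPM and Acta2 at 8.97 and 9.24 CPM. The summed primitive endoderm markers overlapped between treated and untreated HDAC1-Y48E cells, at 298 to 335 CPM and 314 to 331 CPM. Sparc (207 CPM untreated and 201 CPM after OHT) and Lama1 (90.5 and 54.1 CPM) made up most of these sums. Dab2 (8.21 and 30.3 CPM), Amn (3.47 and 17.9 CPM), Sox17 (1.70 and 5.70 CPM), Sox7 and Cubn had higher means after OHT. Gata4, Gata6 and Foxa2 had lower means, as did Sparc and Lama1. Whether these sums bear on the receptor genes was not tested.

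**Figure D5:**
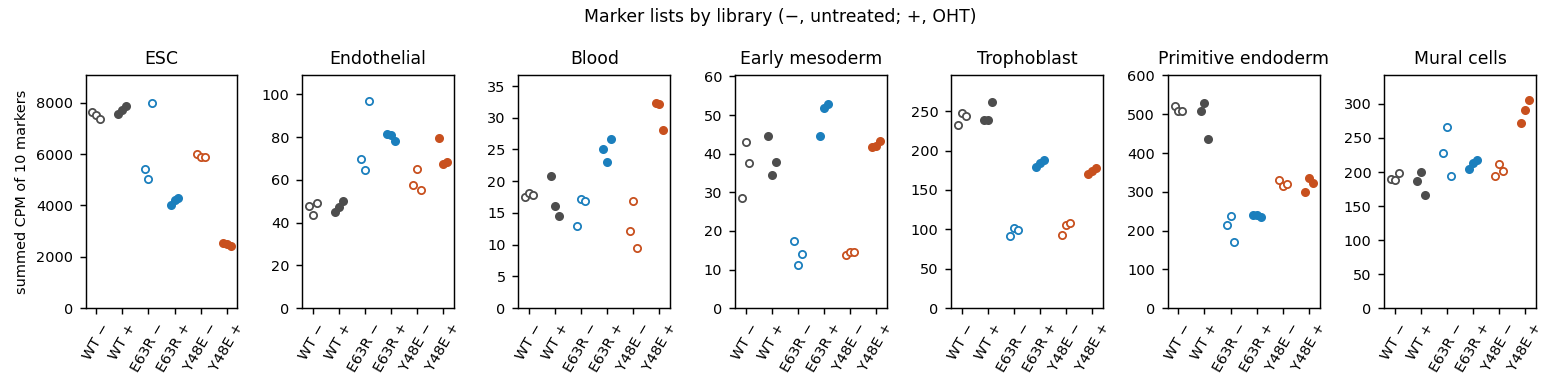
Summed CPM of 10 markers (vertical axes, each from 0) for 7 cell types in every library, with open circles for untreated and filled circles for OHT-treated libraries of the HDAC1-WT (grey), HDAC1-E63R (blue) and HDAC1-Y48E (orange) lines. ESC markers are lowest in OHT-treated HDAC1-Y48E libraries, at 2415 to 2550 CPM, and the summed early mesoderm markers of both mutant lines, mostly Hand1 and Eomes, are higher with OHT than without.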

How the data were processed

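RNA-seq was carried out on 18 libraries of mouse ESCs. Reads were mapped to mm10 and the authors deposited raw counts per gene symbol for each library, made per the submitters' processing notes with HISAT2 2.1.0, SAMtools 1.9 and HTSeq. The annotation and the strand setting are not given in the sources used here. Lines that name no gene (5 per library) took 59.4% to 61.2% of all deposited counts and were dropped.

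Genes were filtered by edgeR's filterByExpr, which left 18791, and scaled with TMM factors (edgeR 4.0.16, limma 3.58.1, R 4.3.3). All 18 libraries entered a single quasi-likelihood fit of the 6 group means, with Benjamini-Hochberg adjustment over the tested genes of a comparison. Each standard error is the log2 change divided by the root of its F value. DEGs had an adjusted p under 0.01 and a change over 2-fold. The procedure was tested on simulated data. Positions, exon lengths and overlaps came from GENCODE M21 (GRCm38), and no near-identical copy of a member was found at 90% identity over 200 bases. Count ratios have 95% counting intervals.

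The 10 members, the 7 lists (ligands, receptors, transcription factors, junction and surface genes, Notch genes, hypoxia genes, inhibitors and semaphorins) and the marker sets were chosen with earlier results of these data known. From each list, the 3 largest changes per line were named, from DEGs with separate groups and at least 1 CPM in the higher group. For each called member the 3 most correlated genes were named (log2 CPM, prior count 2). Results were recomputed with relative log expression factors, without the filter, with a replicate block, only the libraries compared, glmTreat, the DESeq2 1.42.0 Wald test, thinned counts, each library left out in turn and, added after the data had been seen, OHT-treated HDAC1-WT cells as the reference.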

Additional observations from a re-analysis of the deposited data

Results flagged for a closer look

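The response to OHT differed between lines for 4 members, by an edgeR test of the difference itself. For Tek the difference on the log2 scale between the HDAC1-E63R and HDAC1-WT responses was 1.90, and between the HDAC1-Y48E and HDAC1-WT responses 2.37. For Flt1 the HDAC1-Y48E response exceeded that of HDAC1-WT by 1.61. For Vegfa the HDAC1-Y48E response was below that of HDAC1-WT by -1.78 and below that of HDAC1-E63R by -1.30. For Pecam1 these differences were -1.35 and -1.22. Tek responses in mutant lines started from levels below those of HDAC1-WT cells, with means of 3.04 and 4.32 CPM against 9.61 CPM, so the same differences contain a difference between the untreated lines.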

How the results depend on the processing

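Depth limited Kdr, Nrp1, Tie1 and Cdh5, whose libraries held few counts. It also limited Vegfc in OHT-treated HDAC1-Y48E cells, with 10, 7 and 2 counts. Relative log expression factors, no filter, thinned counts and DESeq2 left all 11 counts of called members within 1.5 times. A model of only the libraries compared gave 1 member higher in HDAC1-E63R cells in place of 2 (Tek kept), 0 with a different HDAC1-E63R and HDAC1-WT response in place of 1, and 0 that differed between those untreated lines in place of 2. Testing against a 2-fold change with glmTreat gave 0 higher in HDAC1-E63R cells, 1 lower in HDAC1-Y48E cells in place of 2, and 0, 2 and 0 members with a different response in place of 1, 4 and 2, and 0 and 0 that differed between untreated lines in place of 2 and 1. By construction it asks for more than the adjusted p and fold limits together.

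With only the libraries compared, Tie1 and Flt1 joined the members whose response in HDAC1-Y48E cells differed from HDAC1-WT and HDAC1-E63R cells, respectively. Leaving out each library in turn gave 1 to 2 members higher in HDAC1-E63R cells, 0 to 1 with a different HDAC1-E63R and HDAC1-WT response and 0 to 1 that differed between untreated HDAC1-Y48E and HDAC1-WT cells. Uncalled log2 changes near 0 changed sign. Their ranges in HDAC1-WT cells were -0.043 to 0.014 for Vegfa, -0.21 to 0.028 for Tek, -0.093 to 0.097 for Eng and -0.0079 to 0.083 for Pecam1. In HDAC1-E63R cells they were -0.0059 to 0.19 for Eng, -0.22 to 0.032 for Pecam1 and -0.77 to 0.14 for Cdh5. Replicates with the same number deviated together weakly at most (r between -0.019 and 0.044), although all but 2 of 9 numbered sets correlated best with their own number. A replicate block changed no count of called members, for example 3 higher in HDAC1-Y48E cells. Pgf (edgeR adjusted p = 0.0107) and Selp (0.0114) lost their calls with it. Over all genes, 7 higher and 3 lower in HDAC1-WT cells became 30 and 20 with no filter, 25 and 10 with DESeq2, 15 and 7 with only the libraries compared and 0 and 0 with glmTreat, and the replicate block gave 3 higher. The 890 and 221 in HDAC1-E63R cells became 298 and 90 with only the libraries compared and 179 and 11 with glmTreat, with 355 lower without untreated replicate 2. The 2030 and 1097 in HDAC1-Y48E cells became 832 and 323 with glmTreat. The cause of these shifts was not tested.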

Other observations

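The neighbours of the members within 1 Mb were counted after the data had been seen. In HDAC1-Y48E cells 10.8% of all tested genes rose and 5.84% fell, and in HDAC1-E63R cells 4.74% rose and 1.18% fell. Around Kdr, which lies beside the receptor genes Kit and Pdgfra, 0 of 15 tested neighbours were called higher in either mutant line and 1, Paics, a purine synthesis gene, fell in HDAC1-Y48E cells (log2 change -1.24 ± 0.09, edgeR adjusted p = 4.64e-10). The log2 changes of Pdgfra, no DEG and at low levels, were 1.17 in HDAC1-Y48E and 2.20 in HDAC1-E63R cells. Those of Kit, also no DEG, were -0.75 and -0.03. Among 11 tested neighbours of Tek, 2 rose in HDAC1-Y48E cells, Jun (1.28 ± 0.17, edgeR adjusted p = 2.80e-06) and Junos (1.74 ± 0.28, 2.65e-05), and reads of Jun and Junos, named as its opposite strand gene, cannot be told apart because the strand setting is not known. Around Flt1, 1 of 18 rose, Mtus2 (1.26 ± 0.18, edgeR adjusted p = 7.69e-06). Around Vegfa 1 of 57 rose and 4 fell in HDAC1-Y48E cells, and around Pecam1 1 of 40 rose and 5 fell. Around Cdh5, which was no DEG, 4 of 13 rose and 0 fell in HDAC1-Y48E cells, among them Bean1, whose levels were among those closest to Flt1, on another chromosome.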
